A study of Mus musculus with 8 samples.

Results

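The vitamin C time course of a mouse pre-iPSC clone comprised 4 of the 8 arrays of the series, taken on days 3, 4, 5 and 6 of culture with vitamin C. All 19938 named genes were members, each read by its brightest probe set (by the mean of the 8 arrays), out of 28853 probe sets in all. Each gene was described by 2 quantities in these 4 arrays. The slope is the change of the log2 level per day in a straight line fitted over days 3 to 6. The late difference is the mean of days 5 and 6 minus the mean of days 3 and 4.

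Pre-iPSCs arise when reprogramming of a differentiated cell to pluripotency stalls before it is complete. All arrays came from 1 clone, C9, labelled MaF pre-iPSC9P2, so nothing here speaks for other clones. Both groups were kept on feeders, in medium for mouse embryonic stem cells that was renewed daily. From day 2, the day after plating, the vitamin C group received 50 µg/ml without a break and the untreated group received none. Feeder cells were removed after trypsin treatment before RNA was extracted. The sources used here do not give what MaF stands for, which reprogramming factors the cells carry or how these were delivered. Each treatment and day had 1 array, and whether separate cultures were taken for each day is not stated in the labels. The p-values therefore measure only the spread of these arrays around a line or a group mean. That spread may be technical, and its precision is limited by how few arrays there are.

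Vitamin C, or ascorbate, is a cofactor of dioxygenases, the iron-dependent enzymes that hydroxylate collagen and the hypoxia-inducible factor HIF and that remove methyl groups from histones and oxidise methylated DNA. Reprogramming to pluripotency involves a loss of mesenchymal genes, a gain of epithelial genes and, later, the activation of the cell's own pluripotency genes. Pre-iPSCs have typically gone through the first of these changes without completing the last.

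The 4 vitamin C arrays correlated with each other between 0.977 (days 3 and 6) and 0.992 (days 5 and 6) across all probe sets, and their median log2 values ran from 4.35 to 4.40. Of 13 markers of pluripotent cells, 10 lay above the median of the array on all 4 days and 1, Fut4, lay below it. The mean log2 level of these markers was 6.80, 7.18, 7.66 and 7.94 on days 3 to 6. Of 12 feeder or other fibroblast markers, 10 lay above the array median on all 4 days, and their mean was 6.54, 6.44, 6.18 and 5.85. All 12 had slopes below 0, and in the untreated arrays the mean went from 7.12 to 5.90. RNA of fibroblast marker genes was thus read in every array, and the level of these markers moved with the day. Which cells made this RNA was not tested. In such bulk samples fewer cells of a type and less RNA per cell cannot be told apart. Of 8 macrophage or blood cell markers, 6 lay below the array median on all 4 days (Ptprc, Itgam, Adgre1, Lyz2, Tyrobp and Cd14). The same held for 5 of 7 endothelial markers (Cdh5, Kdr, Tie1, Vwf and Emcn).

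More genes rose than fell from day 3 to day 6 with vitamin C. Krt18, a keratin of simple epithelia, had the steepest rise, followed by the skin protease gene Asprv1. Pluripotency genes such as Lefty2, Sox2 and Nanog rose as well, together with genes of the hypoxia response. The falls were smaller and included genes of fibroblasts and of the cell cycle. In the limma test with Benjamini-Hochberg adjustment over all genes, 622 genes rose and 257 fell, that is, 3.12% and 1.29% of the genes tested. An unadjusted p under 0.05 was reached by 2017 rising and 2163 falling genes of the 19938. Such counts in the lists below are to be read beside these. The smallest slopes called were 0.30 and -0.29 log2 units per day, and the median over all genes was -0.02. Without day 6 only 133 genes rose and 19 fell, among them 119 of the 622 and 11 of the 257. Without day 3, 4 or 5 the counts ran from 707 to 751 for rises and from 305 to 328 for falls.

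Late in the course, 437 genes were higher and 120 lower on days 5 and 6 than on days 3 and 4, which was 2.19% and 0.602% of the genes. Both tests use the same arrays, and 435 genes passed both, which was 49.5% of the genes called by the slope and 78.1% of those called late against early. Runs that leave out a day reuse the other arrays that chose the genes. Directions and low unadjusted p-values kept there follow in part from that choice. Without day 6 the late test called 2 genes as higher and 0 as lower in limma, although all 557 genes kept their direction at an unadjusted p under 0.05. Without day 3 it called 91 higher and 11 lower genes. Without day 4 the lower genes numbered 289 and without day 5 they numbered 67.

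The median step was largest between days 4 and 5, for rising and for falling genes. The slope gives this middle step more weight than the outer steps. Choosing genes by it therefore favours a large middle step in part, here and in the lists below. For the 622 rising genes the median step was 0.30 log2 units from day 3 to 4, 0.68 from day 4 to 5 and 0.41 from day 5 to 6. The largest of the 3 steps was that from day 4 to 5 in 385 of them (61.9%), from day 5 to 6 in 134 and from day 3 to 4 in 103. Without vitamin C the same genes had median steps of 0.09, 0.24 and 0.27. The 257 falling genes had median steps of -0.34, -0.47 and -0.34, and the largest was that from day 4 to 5 in 123 of them (47.9%). Over all genes the median size of a step was 0.19, 0.21 and 0.17 with vitamin C and 0.15, 0.17 and 0.15 without. The direction was the same in all 3 steps for 510 of the rising and 238 of the falling genes. A course that turned was rare: 1 gene, an olfactory receptor, lay at least 1 log2 unit higher on both middle days than on both end days, and 0 lay as much lower.

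**Figure D1:**
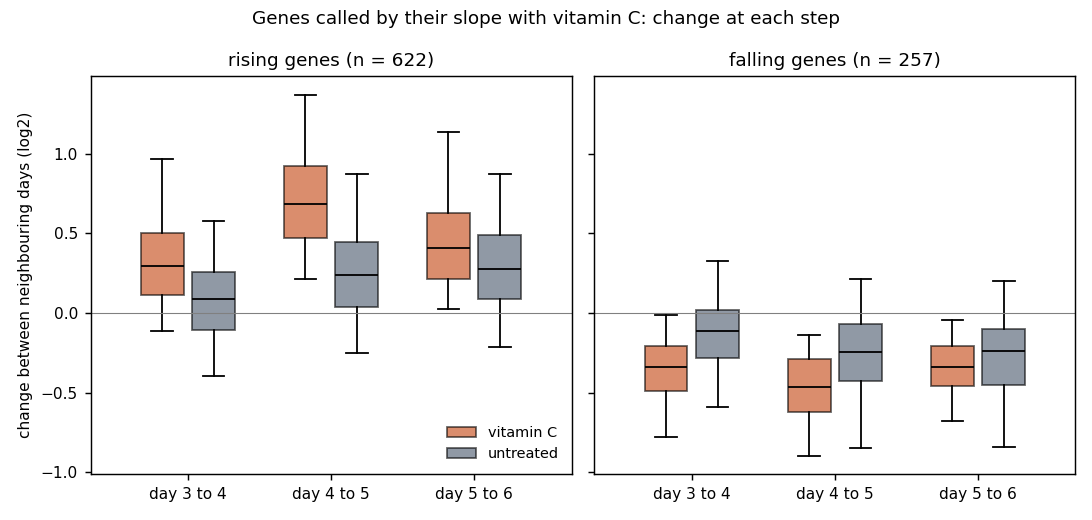
Change in log2 level between neighbouring days for the 622 rising genes (left) and the 257 falling genes (right), with vitamin C (orange) and untreated (grey). Boxes give the median and quartiles over genes and whiskers the 5th and 95th percentiles. The genes were chosen by their slope with vitamin C, which gives the middle step the most weight. Their median rise was largest from day 4 to 5, at 0.68 against 0.24 in the untreated arrays.

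The steepest rise was that of Krt18. Its log2 level was 6.03, 6.48, 8.58 and 10.28 on days 3 to 6 with vitamin C and 5.71, 5.95, 6.85 and 7.65 without. The level climbed in each step, most of all from day 4 to 5, and the untreated cells stayed below the treated cells on each day. The observed rise from day 3 to 6 was 4.26 log2 units, and the slope was 1.49 ± 0.14 per day (moderated SE, adjusted p = 0.00255). Krt7, another keratin of simple epithelia, read 5.39, 5.50, 7.62 and 8.75 (slope 1.22 ± 0.14). A pair of serine protease genes of epithelia was close behind. Prss8, which encodes prostasin, went from 4.30 over 5.48 and 6.95 to 7.48 (slope 1.10), and Klk7, a kallikrein that sheds the outer skin layer, from 5.04 over 5.49 and 7.13 to 8.29 (slope 1.14).

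Steeper than Krt7, and behind Krt18 alone, were a pair of skin barrier genes. Asprv1 encodes a protease that processes filaggrin in the upper epidermis. It read 5.80, 6.73, 8.64 and 9.89 with vitamin C, against 5.02, 5.45, 6.11 and 6.22 without. The day 6 level with vitamin C was the highest of the 8 and the treated cells lay above the untreated on each day. The slope was 1.42 ± 0.09 (adjusted p = 0.00113). Crct1, a gene of the epidermal differentiation complex, read 5.00, 5.27, 7.48 and 8.88 (slope 1.39 ± 0.15).

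Amot, which encodes angiomotin, a junction protein that holds the coactivator YAP out of the nucleus, read 4.15, 5.18, 6.43 and 8.24 with vitamin C. Untreated cells read 4.80, 5.28, 6.24 and 6.64, so the treated cells started lower and ended higher. Its slope of 1.35 ± 0.09 (adjusted p = 0.00113) did not differ beyond the threshold from the untreated slope of 0.65 (difference adjusted p = 0.0878). Slc23a1, a sodium-dependent ascorbate transporter, read 3.65, 4.87, 6.09 and 6.80, and 4.04, 3.70, 3.82 and 3.84 without vitamin C. It rose only in the treated cells, and the difference of the 2 slopes passed the test (adjusted p = 0.0127).

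The other genes of the 14 steepest rises ended at levels between 6.30 and 9.81. They were Car4, a membrane carbonic anhydrase (slope 1.09), Csf1r, the receptor of the growth factor CSF1 on macrophages and trophoblast (1.09), Pyy, a gut peptide hormone (1.08), the carboxypeptidase gene Cpm (1.07), the pepsinogen gene Pga5 (1.07) and Igfbp2, a binding protein of insulin-like growth factors (1.06). Csf1r read 3.60, 3.75, 5.15 and 6.76 and 3.68, 3.68, 3.67 and 4.43 without vitamin C. Of the 8 macrophage or blood cell markers, Csf1r and Cd68 rose, and Cd68 read 5.95, 5.72, 7.14 and 8.10. The mean of the 8, with Csf1r and Cd68 in it, was 3.46, 3.46, 3.67 and 4.04 on days 3 to 6. Of the 8 slopes 4 lay above 0 and 4 below, with a median of -0.01. Of the 8 markers 6, the defining markers Ptprc and Adgre1 among them, lay below the array median on all 4 days. The part of such cells in the level of Csf1r was not tested. Of these 14 genes 13 passed the test without day 6, Csf1r being the exception (adjusted p = 0.0683), and all 14 passed without day 3, 4 or 5.

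**Figure D2:**
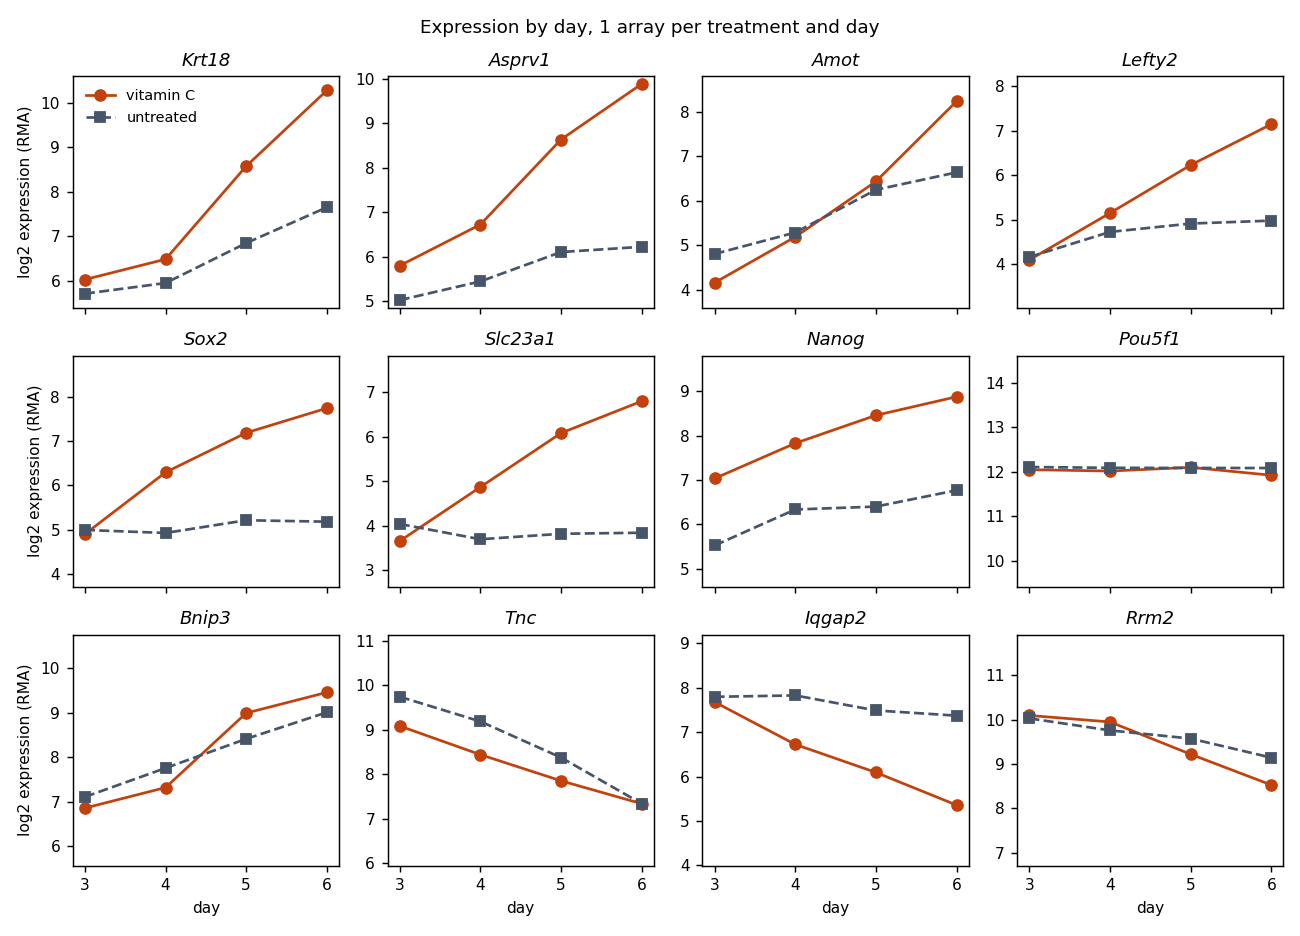
Log2 level by day of 12 genes in the vitamin C arrays (orange circles) and the untreated arrays (grey squares), 1 array per point and every panel spanning the same range of log2 units. Krt18, Asprv1, Amot, Lefty2, Sox2 and Slc23a1 climbed with vitamin C, Pou5f1 stayed between 11.93 and 12.10, and Tnc and Rrm2 fell.

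Falls were shallower than rises. The steepest was that of Ces2g, a carboxylesterase, which read 6.51, 4.96, 4.61 and 3.99 with vitamin C and 6.60, 6.54, 6.35 and 5.94 without. Most of its fall was over by day 4, and the untreated cells stayed higher on each day. It fell 5.72-fold from day 3 to 6 (slope -0.79 ± 0.11, adjusted p = 0.00928). Iqgap2, a scaffold protein of the actin skeleton, fell in even steps through 7.68, 6.72, 6.09 and 5.36 and read 7.79, 7.83, 7.49 and 7.37 without vitamin C. Its slope was -0.76 ± 0.07 (adjusted p = 0.0026), and the difference from the untreated slope just missed the threshold (adjusted p = 0.0524).

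Next came Nefl, a neurofilament subunit (slope -0.70), Akr1c18, a steroid dehydrogenase (-0.70), the thioesterase gene Them5 (-0.69), the desmosomal cadherin gene Dsg3 (-0.65) and the citrate transporter gene Slc13a5 (-0.62). Dsg3 is a cadherin of stratified epithelia and fell from 6.67 to 4.72 while other skin genes rose. The matrix genes Tnc (tenascin C) and Mmp13 (a collagenase) fell with slopes of -0.58 and -0.56, beside untreated slopes of -0.80 and -0.92. Mcpt8, a serine protease gene, Mfsd2a, a lipid transporter gene, the small nucleolar RNA gene Snord87, Bend6 and Ccnb1ip1 completed the 14, with slopes between -0.60 and -0.56. Without day 6, 6 of the 14 passed (Ces2g, Iqgap2, Nefl, Dsg3, Slc13a5 and Mfsd2a), and without day 3 all but Mfsd2a did. Ces2g, Mcpt8, Klk7 and the keratins have close relatives, and whether their probes read 1 gene alone is uncertain.

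The late difference added 6 genes in each direction to those named by their slope. Prdm1, a transcriptional repressor of germ cell precursors and of differentiating epithelia, read 4.24, 4.50, 6.41 and 7.12, and 4.31, 4.17, 5.14 and 6.23 without vitamin C. Its early and late days did not overlap in either group. The late difference was 2.40 ± 0.24 (moderated SE, adjusted p = 0.0123). Ceacam2, an adhesion molecule with the close relative Ceacam1 (2.25), Cldn1, a tight junction claudin (2.24), Trh, a peptide hormone precursor (2.22), the adhesion receptor gene Adgrl2 (2.15) and the carbonyl reductase gene Cbr2 (2.15) followed. Cldn1 was near its floor on days 3 and 4, at 3.28 and 3.21, and read 4.71 and 6.27 thereafter. The largest late falls were Tnfsf9, a ligand of T cells (-1.43), Plek2 (-1.27), the collagen cross-linking enzyme gene Lox (-1.24), Fam72a (-1.24), Ifitm6 (-1.22) and Ctnnd2, a catenin (-1.20). Without day 6 none of these 12 genes passed (adjusted p from 0.0563 to 0.248). Without day 3, Cldn1, Adgrl2, Tnfsf9, Lox, Ifitm6 and Ctnnd2 did not pass, and without day 5, Ceacam2 and Tnfsf9 did not.

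Epithelial genes rose together. Of 38 measured genes of epithelial identity and junctions, 19 rose and 0 fell, against 3.12% and 1.29% of all genes, and 35 had slopes above 0. The median slope was 0.34 per day, against -0.02 over all genes. In limma an unadjusted p under 0.05 was reached by 33 members above 0 and 0 below. The count was 7 without day 6 and 17 to 20 without another day. In 16 of the 19 the largest step was that from day 4 to 5, as in 385 of all 622 rising genes. Without vitamin C 8 rose and the median was 0.21.

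The list held 4 keratin genes that rose: besides Krt18 and Krt7, Krt8, the partner of Krt18 in one filament, read 8.94, 9.05, 10.34 and 11.19, and Krt19 read 9.70, 9.80, 11.07 and 11.57. In all 4 the step from day 3 to 4 was the smallest of the 3. The claudins of tight junctions Cldn4 (slope 0.88), Cldn6 (0.75), Cldn3 (0.73) and Cldn7 (0.47) rose too. Cdh1, the epithelial cadherin, read 8.54, 8.91, 9.42 and 9.48, against 8.19, 8.26, 8.59 and 8.86 without vitamin C. The treated cells lay higher on each day and the rise was slight, with a slope of 0.34 ± 0.07 (adjusted p = 0.0436). Of transcription factors of epithelia, Grhl2 had a slope of 0.49, beside 0.01 in the untreated arrays, Ovol1 0.47 beside 0.13, and Elf3 0.60 beside 0.59. None of these 3 differences passed the test (adjusted p = 0.127, 0.341 and 0.973). The other members that rose were Prss8, the sorting adaptor Ap1m2, the protease inhibitor Spint2, and the junction and polarity genes Pkp3, Tjp3, Crb3 and Patj.

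The promoters of Krt18 and Krt7 are given here because these genes had the steepest rises of the list. A promoter without the letters CACCTG or CAGGTG would have been passed over. Each is the 250 bases before the gene's start in RefSeq (GRCm38.p6), 5′ to 3′, with the letters CACCTG in capitals, an E-box form that repressors of the Snail and Zeb families can bind. Krt18 lies at chr15:102027966-102028215 on the plus strand and Krt7 at chr15:101412153-101412402 on the plus strand.
Krt18: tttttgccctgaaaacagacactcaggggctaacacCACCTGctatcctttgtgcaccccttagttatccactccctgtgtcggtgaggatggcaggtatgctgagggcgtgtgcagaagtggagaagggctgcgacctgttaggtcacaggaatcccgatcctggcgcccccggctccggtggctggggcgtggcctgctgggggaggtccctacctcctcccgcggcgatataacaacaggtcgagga
Krt7: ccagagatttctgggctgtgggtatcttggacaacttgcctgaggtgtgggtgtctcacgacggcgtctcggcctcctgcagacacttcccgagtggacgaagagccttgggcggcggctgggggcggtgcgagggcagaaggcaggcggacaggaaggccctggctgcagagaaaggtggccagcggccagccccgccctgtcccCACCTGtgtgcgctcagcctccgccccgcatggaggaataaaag
The search took CACCTG and its reverse complement CAGGTG, in the 300 bases of each listed promoter (250 before to 50 after the start). A match was found in 13 of the 13 rising list members with a listed promoter and in 7 of the 10 other members (70.0%). The share was 22.2% of 15563 genes, 32.0% of the rising genes and 16.8% of the falling genes with a promoter. The list's members that rose and those that did not pass were thus both above all genes in this share. A match is a description of letters and not a site of binding.

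Mesenchymal and fibroblast genes had slopes mostly below 0, in both groups of arrays, and the difference between the groups' counts was not tested. Of 30 measured mesenchymal genes 5 fell (16.7%) and 0 rose, against 1.29% and 3.12% of all genes. The list had a median slope of -0.19 and 3 members above 0, and 9 fell in the untreated arrays (median -0.23). The 5 were Cdh2, the neural cadherin (slope -0.48), Myl9, a myosin light chain of contractile cells (-0.47), the receptor kinase Axl (-0.46), the limb and fibroblast transcription factor Prrx1 (-0.39) and the growth factor Tgfb3 (-0.37). Axl read 7.14, 6.69, 6.14 and 5.77, and 7.56, 7.51, 7.18 and 7.11 without vitamin C. It lay lower in the treated cells on each day, and its slope difference did not pass (adjusted p = 0.223). Vim, Zeb1 and Snai2 did not pass, with slopes of -0.24, -0.25 and -0.22. In limma 1 member above 0 and 17 below reached an unadjusted p under 0.05. The count of falls was 1 without day 3 and 1 without day 6.

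Of 33 fibroblast and feeder markers 8 fell and 1, Igfbp5, a binding protein of insulin-like growth factors, rose. These are 24.2% and 3.03%, against 1.29% and 3.12% of all genes. The list's median slope was -0.20, beside -0.35 in the untreated arrays, where 13 fell. The matrix genes Tnc, Lox, Postn, Col1a1 and Col1a2, the growth factor receptors Pdgfrb and Ddr2 and Igfbp7 made up the 8. Tnc read 9.09, 8.44, 7.85 and 7.34, and 9.74, 9.19, 8.38 and 7.34 without vitamin C. Both groups ended at the same level, and the treated cells had started lower. Thy1 did not pass, with 6.51, 6.68, 6.28 and 5.97 (slope -0.20, adjusted p = 0.193). Without day 6, 0 of the list fell at the adjusted threshold and 6 did without day 3, while 16 members below 0 had an unadjusted p under 0.05 on all 4 days. The part of these markers' fall in the other results was not tested.

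Pluripotency genes were among those that rose, from different starting levels and often with the first step as the largest. Of 47 measured members 13 rose (27.7%) and 1 fell (2.13%), against 3.12% and 1.29% of all genes. The list's median slope was 0.11 and 34 slopes lay above 0. In 7 of the 13 the largest step was that from day 3 to 4, which was the case in 103 of all 622 rising genes. The count was 8 without day 6 and 12 to 17 without another day. The untreated arrays had 5 rises and 1 fall, and the median was 0.05.

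The Nodal antagonists Lefty1 and Lefty2 were the steepest of them. Lefty2 read 4.10, 5.15, 6.23 and 7.15 with vitamin C, an even climb, against 4.16, 4.72, 4.91 and 4.98 without. Both groups were alike on day 3 and apart from day 4 on. Its slope was 1.02 ± 0.07 (adjusted p = 0.00113), and it differed from the untreated slope of 0.26 (adjusted p = 0.0248). Lefty1, a close relative whose probes may read both, read 3.76, 5.27, 5.94 and 7.01, and 3.62, 4.05, 5.38 and 5.39 without vitamin C (slopes 1.04 and 0.66).

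Sox2, a core pluripotency factor, read 4.91, 6.30, 7.19 and 7.74 with vitamin C and 5.00, 4.93, 5.22 and 5.18 without. The groups were alike on day 3 only. The rise was 7.12-fold by day 6, its steps became smaller with each day, and its slope was 0.94 ± 0.09 (adjusted p = 0.00297). Nanog, another core factor, read 7.03, 7.83, 8.46 and 8.87, against 5.53, 6.34, 6.40 and 6.77. It started higher in the treated cells and rose in both groups, with slopes of 0.61 ± 0.07 (adjusted p = 0.00459) and 0.38. Pou5f1, the factor OCT4, read 12.05, 12.02, 12.10 and 11.93 and stayed within this range (slope -0.03 ± 0.07, adjusted p = 0.85). Klf4 and Myc did not pass either, with slopes of 0.11 and 0.08. Whether the probes of Sox2, Pou5f1, Klf4 and Myc also read introduced copies of these genes was not tested.

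Of genes that mark a late stage of reprogramming, Utf1 (slope 0.73), Dppa4 (0.63), Lin28a (0.53), Zfp42 (0.45), Tfcp2l1 (0.43) and Prdm14 (0.38) rose. Zfp42, which encodes REX1, stayed low, at 3.33, 3.99, 4.30 and 4.72, and read 2.96, 2.97, 4.09 and 3.56 without vitamin C. Prdm14 reached 4.05 on day 6, below the median of the array. Tdgf1, the Nodal coreceptor, rose with and without vitamin C (slopes 0.61 and 0.58). Jam2, an adhesion molecule, had slopes of 0.35 with and -0.30 without vitamin C, both past the threshold, and the difference had an adjusted p of 0.051. Manba, a lysosomal mannosidase in the list, rose with 0.55. Nr5a2, a nuclear receptor, was the member that fell, through 6.40, 5.75, 5.20 and 4.98 (slope -0.48 ± 0.08).

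Other genes of this state took uneven courses and missed the slope test. Dppa5a read 9.20, 10.73, 10.95 and 11.03, so day 3 stood apart from 3 like values (slope 0.57, adjusted p = 0.0541). Dppa2 read 5.35, 6.99, 7.16 and 7.11 (slope 0.55, adjusted p = 0.0875). Esrrb dipped and then climbed, with 4.10, 3.56, 4.62 and 5.50 (slope 0.53, adjusted p = 0.0775). Dppa3, also called Stella, read 4.25, 4.93, 4.18 and 4.23, with day 4 apart (slope -0.08). Without vitamin C, Dppa5a read 6.48 to 7.59 and Dppa2 3.03 to 3.51, below every treated array.

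Genes of primed pluripotency, the state of the later epiblast, were no exception to the rise. Of 17 measured members 6 rose (35.3%) and 1 fell (5.88%), against 3.12% and 1.29% of all genes. The list's median slope was 0.20, and 6 rose in the untreated arrays. The count was 4 without day 6. Cer1, a secreted antagonist of Nodal, BMP and WNT, read 3.53, 5.29, 5.82 and 6.64, and 3.21, 4.05, 5.11 and 5.23 without vitamin C. Its largest step was the first. Fgf5 (slope 0.72), Lef1 (0.63), Pim2 (0.59), Otx2 (0.58) and the DNA methyltransferase gene Dnmt3b (0.55) rose as well, and Etv4, an ETS factor, fell (-0.47). Otx2 was at least as steep without vitamin C (0.71).

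The miR-302 cluster, a group of microRNA genes characteristic of pluripotent cells, is given with its mature sequences because its genes were the only microRNA genes that passed. They were singled out after their values were seen. Of 297 microRNA genes tested 3 rose (1.01%) and 0 fell, against 3.12% and 1.29% of all genes. The probe sets carry the names of the genes, and the mature microRNAs themselves were not measured apart. The hairpins of Mir302b, Mir302c, Mir302a and Mir302d lie in this order within 462 bases at chr3:127545228-127545689 on the plus strand (RefSeq, GRCm38.p6). The mature sequences listed there follow, 5′ to 3′, with the seed (bases 2 to 8) in capitals.
mmu-miR-302b-3p: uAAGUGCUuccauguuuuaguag
mmu-miR-302d-3p: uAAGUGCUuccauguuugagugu
mmu-miR-302c-3p: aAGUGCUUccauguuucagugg
mmu-miR-302b-5p: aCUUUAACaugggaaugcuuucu
mmu-miR-302c-5p: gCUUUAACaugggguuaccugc
mmu-miR-302d-5p: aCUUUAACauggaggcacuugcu
mmu-miR-302a-5p: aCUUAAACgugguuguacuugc
The 3p arms of Mir302b and Mir302d share the seed AAGUGCU, and the listed 3p arm of Mir302c has the same letters shifted by one base. The 5p arms of Mir302b, Mir302c and Mir302d share the seed CUUUAAC, which differs from that of the Mir302a 5p arm.

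Mir302b read 3.46, 4.02, 4.39 and 4.84 (slope 0.45 ± 0.07, adjusted p = 0.0121). Mir302c read 1.71, 3.19, 3.60 and 4.08 (slope 0.75 ± 0.11, adjusted p = 0.0111). Mir302d read 3.21, 3.35, 4.07 and 4.45 (slope 0.45 ± 0.08, adjusted p = 0.0184). All 3 rose in each step, at levels mostly below the array median. Mir302a read 2.20, 2.21, 2.50 and 3.26 and missed the threshold (slope 0.35, adjusted p = 0.0674). In the untreated arrays Mir302b read 3.54, 4.51, 3.93 and 4.73, Mir302c 2.44, 3.82, 3.03 and 3.33 and Mir302d 2.96, 3.84, 3.64 and 3.57. These went up and down without a steady course, overlapped with the treated levels, and none of the 4 slope differences passed (adjusted p from 0.385 to 0.757).

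Genes of the hypoxia response and of glycolysis, many of them HIF targets, rose mainly between days 4 and 5. Of 33 measured genes 15 rose (45.5%) and 0 fell, against 3.12% and 1.29% of all genes. The list's median slope was 0.35 and 30 slopes lay above 0. In limma 22 members above 0 and 1 below had an unadjusted p under 0.05. In 12 of the 15 the largest step was that from day 4 to 5, as in 385 of all 622 rising genes. The medians of the 15 were 0.25, 1.03 and 0.43 over the 3 steps. The count was 4 without day 6 and 16 or 17 without another day. Untreated, 10 rose and the median was 0.21.

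Bnip3, a mitochondrial protein gene induced by low oxygen, read 6.86, 7.32, 8.997 and 9.46 with vitamin C and 7.11, 7.76, 8.42 and 9.01 without. The treated cells started lower, ended higher and made most of the rise in one step, while the untreated cells rose evenly. The slopes were 0.95 ± 0.11 (adjusted p = 0.00406) and 0.64. Egln3, a HIF prolyl hydroxylase that needs ascorbate for full activity in biochemical assays, read 8.20, 8.89, 9.77 and 10.31, and 8.07, 8.26, 9.06 and 10.25. The groups ended alike, with slopes of 0.72 and 0.73. Ero1a, an oxidase of protein folding, read 7.33, 7.40, 8.76 and 9.48, and 7.71, 7.91, 7.94 and 8.54 (slopes 0.78 and 0.25, difference adjusted p = 0.21).

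The glucose transporters Slc2a1 (slope 0.59) and Slc2a3 (0.63) and the glycolytic genes Aldoc (0.84), Pfkl (0.50) and Aldoa (0.47) rose, while Ldha (0.12) and Pgk1 (0.35, adjusted p = 0.0765) did not pass. Ndrg1 (0.83), the growth factor gene Vegfa (0.57), the adenylate kinase gene Ak4 (0.57), P4ha1, a collagen prolyl hydroxylase (0.56), the vasodilator peptide gene Adm (0.52), Ddit4, an inhibitor of mTORC1 (0.45), and Ankrd37 (0.41) made up the rest. Vegfa read 5.99, 6.01, 6.94 and 7.58, against 6.68, 6.18, 6.27 and 7.0025 without vitamin C, and its slope difference did not pass (adjusted p = 0.341). None of the 15 slopes differed from its untreated slope past the threshold (adjusted p from 0.21 to 0.987).

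Promoters of the 15 rising genes were taken from the steepest gene down, passing over those without the letters ACGTG or CACGT. The promoters of Bnip3, Ero1a and Egln3 came first and are given. Having been chosen for these letters, they do not stand for all 15. Each is the 250 bases before the start in RefSeq (GRCm38.p6), 5′ to 3′, with the letters ACGTG or their reverse complement CACGT in capitals, which occur in hypoxia response elements. In Bnip3 both overlap as CACGTG. The positions are chr7:138909507-138909756 for Bnip3, chr14:45318573-45318822 for Ero1a and chr12:54203875-54204124 for Egln3, all on the minus strand.
Bnip3: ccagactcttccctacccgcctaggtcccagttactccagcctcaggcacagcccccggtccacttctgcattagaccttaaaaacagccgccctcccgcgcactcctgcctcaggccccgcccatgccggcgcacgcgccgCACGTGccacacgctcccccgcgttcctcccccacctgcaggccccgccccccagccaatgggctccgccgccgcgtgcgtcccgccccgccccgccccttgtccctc
Ero1a: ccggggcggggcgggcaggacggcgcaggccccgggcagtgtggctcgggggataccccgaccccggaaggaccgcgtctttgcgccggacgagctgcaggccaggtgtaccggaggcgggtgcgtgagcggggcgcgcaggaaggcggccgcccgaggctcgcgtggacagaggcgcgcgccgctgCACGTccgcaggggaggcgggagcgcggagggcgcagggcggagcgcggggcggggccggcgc
Egln3: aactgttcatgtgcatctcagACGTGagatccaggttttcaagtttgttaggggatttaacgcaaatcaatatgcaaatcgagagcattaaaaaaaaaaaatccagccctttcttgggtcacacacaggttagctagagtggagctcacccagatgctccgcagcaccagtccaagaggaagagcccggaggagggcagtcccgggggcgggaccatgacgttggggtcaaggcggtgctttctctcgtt
In windows of 300 bases a match to either form was found in 11 of the 13 rising list members with a listed promoter (84.6%) and in 12 of the 17 other members (70.6%). The share was 24.4% of 15563 genes, 29.0% of the rising and 26.5% of the falling genes with a promoter. Members that rose and members that did not pass were thus both above all genes in this share, as with the E-box form.

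Some lysosomal genes rose with vitamin C. Of 29 measured genes of the lysosome and autophagy 7 rose (24.1%) and 0 fell, against 3.12% and 1.29% of all genes. The list's median slope was 0.23 and 25 lay above 0. In the untreated arrays 0 rose and 0 fell in limma, with 6 above 0 and 2 below at an unadjusted p under 0.05 and a median of 0.05. Ctsh, a cathepsin, read 3.90, 4.68, 5.62 and 6.30, and 4.86, 4.64, 4.65 and 4.89 without vitamin C. It started lower in the treated cells and crossed the untreated level by day 4, and it was the member whose 2 slopes differed past the threshold (adjusted p = 0.0182). The cathepsins Ctsl (slope 0.37) and Ctsd (0.34), the hexosaminidase subunit Hexa (0.42), Gpnmb (0.37), and the autophagy genes Wipi1 (0.36) and Map1lc3a (0.33) were the others, and their slope differences did not pass (adjusted p from 0.161 to 0.47). The count of rises was 1 without day 6. The macrophage gene Cd68, a lysosomal membrane protein, rose beside them with 5.95, 5.72, 7.14 and 8.10 (slope 0.79), and its part in these values was not tested.

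Skin barrier genes that rose did so mainly between days 4 and 5. Of 29 measured genes 10 rose (34.5%) and 0 fell, with a median slope of 0.19, against 3.12% and 1.29% of all genes. The largest step was that from day 4 to 5 in 385 of all 622 rising genes and in all 10 of these. Their median steps were 0.08, 1.35 and 0.49. In limma 15 members above 0 and 1 below had an unadjusted p under 0.05. The count was 3 without day 6 and 14 without day 3, and 4 rose in the untreated arrays. Sprr1b, a precursor of the cornified envelope, read 3.70, 4.26, 5.89 and 6.14 (slope 0.90). The lipoxygenase genes Alox12b (0.89) and Aloxe3 (0.58), the transglutaminase gene Tgm1 (0.54) and the ceramide synthase gene Cers3 (0.48) serve the lipid and protein barrier of the skin. Alox12b read 6.32, 6.80, 8.28 and 8.78, and 5.91, 5.96, 6.55 and 7.44 without vitamin C. Sprr1a (0.83), Krt16 (0.71), Krt1 (0.66), Krt17 (0.64) and Asprv1 were the remaining members, and the Sprr and Krt genes have close relatives.

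Genes of the first lineages often had the last step as the largest. Of 26 trophoblast and placenta genes 8 rose and 0 fell (median 0.11), and of 24 endoderm genes 8 rose and 0 fell (median 0.12). The rises are 30.8% and 33.3%, against 3.12% of all genes. In limma 10 trophoblast genes above 0 and 1 below, and as many endoderm genes, had an unadjusted p under 0.05. Over all 19938 genes these counts were 2017 and 2163. The largest step was that from day 5 to 6 in 5 of the 8 trophoblast and 4 of the 8 endoderm genes, against 134 of all 622 rising genes. Without day 6 the counts were 1 and 3. Untreated, 2 trophoblast and 4 endoderm genes rose.

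Among the trophoblast genes Nrk, a kinase of the placenta on the X chromosome, read 4.42, 4.67, 5.95 and 7.42, and 4.52, 4.58, 4.85 and 5.22 without vitamin C. The groups were alike until day 4 and apart thereafter (slopes 1.03 and 0.24, difference adjusted p = 0.126). Plac1 read 2.19, 3.51, 3.61 and 5.14, against 2.95, 2.81, 2.57 and 2.42, and its slopes of 0.89 and -0.18 differed past the threshold (adjusted p = 0.0325). Plet1 (0.85), Krt8, Ascl2 (0.58), Eomes (0.45), Gata3 (0.43) and Gata2 (0.30) were the others. Cdx2, which marks the trophectoderm, read 2.87, 3.50, 3.47 and 3.20 and did not pass.

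Among the endoderm genes, the lipoprotein gene Apoe read 6.77, 7.53, 8.74 and 9.37 (slope 0.90 ± 0.08) and rose without vitamin C too (0.67). The transcription factor genes Lhx1 (0.75), Gata4 (0.67), Gata6 (0.48) and Sox17 (0.47), the receptor gene Cxcr4 (0.58), the retinol carrier gene Rbp4 (0.49) and Cer1 completed the 8. Gata4 read 4.40, 4.88, 5.13 and 6.54, with its largest step at the end. Mesoderm genes had 3 rises of 23 (Gata4, Eomes and Bmp4) and neurectoderm genes 3 of 24 (Otx2, Map2 and Msi1), with 0 falls in both and medians of 0.01 and -0.06. In limma 2 mesoderm and 4 neurectoderm genes below 0 had an unadjusted p under 0.05, beside 2163 of all 19938 genes. The sign of the mesoderm median changed with the scaling of the arrays. Without day 6, 0 genes of either list rose.

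Imprinted and germline genes held a few rises each. Of 30 imprinted genes 6 rose and 0 fell, and in 4 of the 6 the largest step was that from day 5 to 6. The amino acid transporter gene Slc38a4, expressed from the paternal allele in placenta, read 5.07, 5.14, 5.99 and 7.01, and 5.37, 5.24, 4.68 and 4.42 without vitamin C. It rose in the treated cells and fell in the untreated cells (slopes 0.66 and -0.34, both past the threshold). The cyclin kinase inhibitor gene Cdkn1c (0.59), Ascl2, the zinc finger gene Peg3 (0.53), Mest (0.45) and Nnat (0.41) rose as well. Of 36 germline genes 5, or 13.9%, rose (Prdm1, Tdrd12, Kit, Hormad1 and Dmrt1) and 0 fell. Without day 6 these counts were 0 and 1.

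Genes of proliferation leaned downwards. Of 39 measured genes of the cell cycle and DNA replication 4 fell (10.3%) and 0 rose, against 1.29% and 3.12% of all genes. Of the 39 slopes 37 lay below 0 (median -0.15), as did 11381 of 19938 over all genes. Rrm2, a subunit of ribonucleotide reductase, read 10.09, 9.95, 9.22 and 8.53, against 10.02, 9.75, 9.57 and 9.14 without vitamin C (slopes -0.54 ± 0.08 and -0.28). The cyclin genes Ccnd1 (-0.45), Ccnd2 (-0.35) and Ccne2 (-0.32) were the others. Ccnd1 read 9.90, 9.72, 9.15 and 8.58, and 9.98, 9.93, 9.80 and 9.57, so the groups parted on days 5 and 6. In limma 15 members below 0 and 0 above had an unadjusted p under 0.05, and 0 fell past the adjusted threshold without day 6. The untreated median was -0.11, with 1 fall.

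Of 30 genes of ribosome biogenesis and MYC targets 2 fell (Rrp9 and Cad) and 1 rose (Mycn). These are 6.67% and 3.33%, against 1.29% and 3.12% of all genes. Cad passed narrowly in limma (adjusted p = 0.0489). Of the 30 slopes 24 lay below 0 (median -0.16, and -0.16 untreated), as did 11381 of 19938 over all genes. Without day 3 or day 6, 0 fell, and 1 did without day 4 or day 5. Small nucleolar RNA genes, which guide the modification of ribosomal RNA, were in the same direction. Of 53, 4 fell (7.55%, against 1.29% of all genes). They were Snord87, Snord52, Snora73b and Snora62, chosen after their values were seen. Of the 53 slopes 39 lay below 0, with medians of -0.13 with and -0.15 without vitamin C. Of 34 genes of the amino acid and stress response 4 fell (11.8%) and 3 rose (8.82%), against 1.29% and 3.12% of all genes. The falls were the amino acid transporters Slc7a11 (-0.54), Slc7a1 (-0.40) and Slc7a5 (-0.33) and the folate enzyme gene Mthfd2 (-0.36), and their untreated slopes were -0.55, -0.29, -0.31 and -0.31. The falls numbered 2 without day 3 and 1 without day 6.

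**Figure D3:**
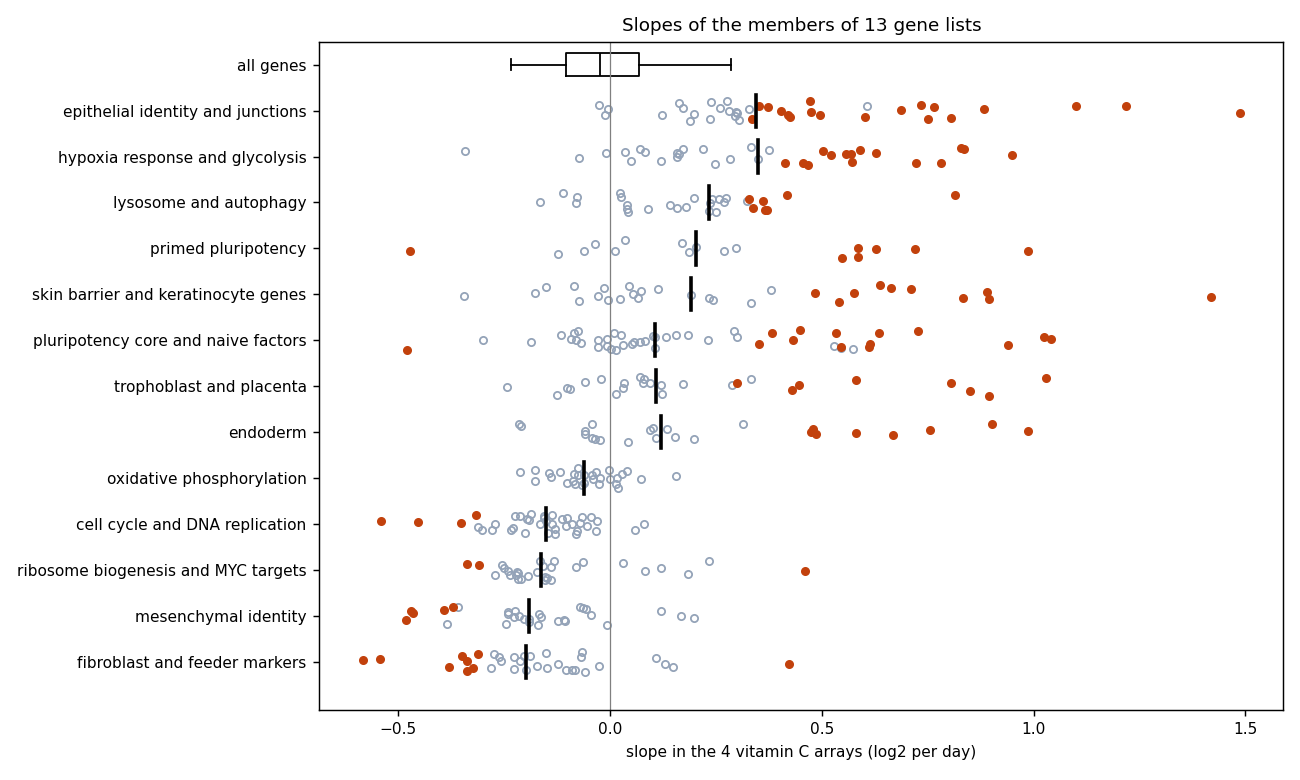
Slope in the 4 vitamin C arrays of each measured member of 13 gene lists, in log2 units per day. Filled points passed the limma test, open points did not, black bars are list medians, and the box at the top gives the median and quartiles of all 19938 genes with the 5th and 95th percentiles. The medians run from 0.35 for the hypoxia response to -0.20 for fibroblast and feeder markers. Of 29 oxidative phosphorylation genes 0 passed, while 3.12% of all genes rose and 1.29% fell.

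Few genes of the histone and DNA dioxygenases, which use ascorbate, passed the test. Of 30 histone and DNA dioxygenase genes 2 rose and 0 fell, near the 3.12% and 1.29% of all genes, with a median slope of 0.04. They were the histone demethylase genes Kdm5b, with 8.09, 8.36, 9.11 and 9.30 (slope 0.44), and Kdm3a, with 7.59, 7.75, 8.17 and 8.62 (0.35). Tet1, Tet2 and Tet3, which oxidise methylated DNA, had slopes of -0.00, 0.05 and -0.05. In limma 6 members above 0 and 4 below had an unadjusted p under 0.05, beside 2017 and 2163 of all 19938 genes. Without day 6, 0 members rose. Of 23 genes of matrix assembly and collagen hydroxylation 3 rose (P4ha1 with 0.56, Nid2 with 0.36 and Plod2 with 0.32), and 0 fell. P4ha1 read 6.999, 7.25, 8.28 and 8.52, and 7.91, 8.15, 8.26 and 8.65 without vitamin C, so it began lower in the treated cells and caught up. In limma 5 members above 0 and 3 below had an unadjusted p under 0.05, beside the same 2017 and 2163 of all genes. Without day 6, 0 of this list rose.

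Of 14 genes of vitamin C transport and recycling 3 rose, or 21.4% against 3.12% of all genes. They were Slc23a1 and the glucose transporters Slc2a1 and Slc2a3, which also carry dehydroascorbate. The other sodium-dependent ascorbate transporter, Slc23a2, read 7.18, 6.95, 7.08 and 7.10 and did not pass (slope -0.01, adjusted p = 0.961). It was level in the treated cells while Slc23a1 rose. Only Slc23a1 among them differed in slope from the untreated cells. The count of rises was 1 without day 6 and 4 without any other day. Of 28 genes of chromatin silencing 1 rose (3.57%) and 0 fell, near the 3.12% and 1.29% of all genes. It was the methyltransferase cofactor Dnmt3l, at 3.39, 3.02, 4.60 and 4.88 (slope 0.61, adjusted p = 0.048). Dnmt3l did not pass after a second quantile normalization (adjusted p = 0.0625) or without day 6 (adjusted p = 0.262). Nor did it pass when the probe sets of each gene were averaged or when each probe set was tested.

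In 3 lists no member passed the slope test, which 3.12% of all genes passed as rising and 1.29% as falling. These lists were oxidative phosphorylation (29 genes, median -0.06), sterol and fatty acid synthesis (27 genes, median 0.01) and the two-cell-like genes (7 measured, median -0.09). An unadjusted p under 0.05 in limma was reached by 2017 genes above 0 and 2163 below of all 19938. It was reached by 0, 1 and 0 of the lists' members above 0 and by 2, 3 and 1 below. The lowest adjusted p of a slope was 0.148, 0.0984 and 0.224. The late test called 1 gene of sterol and fatty acid synthesis as higher.

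Signalling genes moved in both directions. Of 30 MAPK and immediate early genes 4 rose, Jun (slope 0.60), Dusp1 (0.58), Fos (0.48) and Fosb (0.41), and Etv4 fell, and 6 rose in the untreated arrays. Jun read 8.23, 8.79, 9.60 and 9.95 with and 8.28, 8.73, 9.31 and 9.91 without vitamin C, so both groups climbed on each day. The count of rises was 1 without day 6 and 8 or 9 without another day. Of 29 genes of BMP and Nodal signalling 5 rose (both Lefty genes, Tdgf1, Bmp4 and Id2) and Inhba fell, with 3 rises without day 6 and 7 to 9 without another day. Of 29 WNT genes 3 rose (Lef1, Fzd7 and Lgr4) and 0 fell, and in limma 9 above 0 and 0 below had an unadjusted p under 0.05. The count was 1 without day 6 and 5 without day 5. Of 30 YAP and contractile genes 2 rose (Amot and Cnn2) and 3 fell (Axl, Actg2 and Myl9), and the sign of their median changed with the scaling. Without day 3, 6 rose, and without day 6, 1 rose and 1 fell.

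Interferon genes were split. Of 27 measured members 3 rose and 1 fell with vitamin C, while 2 rose and 8 fell without. With vitamin C these are 11.1% and 3.7%, against 3.12% and 1.29% of all genes. Rsad2 read 4.40, 4.61, 5.79 and 6.12, against 4.81, 4.25, 4.61 and 4.90, and Irf1 6.03, 6.51, 7.42 and 7.72, against 5.97, 6.24, 6.73 and 6.96. The treated cells were above the untreated from day 4 on in both genes. Parp14 (0.48) was the other rise and Ifit2 (-0.40) the fall. Of 29 inflammatory genes Nfkbia and Cxcl10 rose and Il6 and Ccl2 fell, and 9 fell without vitamin C. With vitamin C the rises and the falls are each 6.9% of this list. Without day 3, 6 interferon genes rose and 0 fell, without day 5, 5 rose, and without day 6, 1 rose and 0 fell. Without day 6, 0 inflammatory genes passed.

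The remaining lists had few calls. Of 30 antioxidant genes 2 rose, Hmox1 (0.61) and Mt2 (0.37), and 2 fell, Slc7a11 and Prdx3. Each count is 6.67%, against 3.12% rising and 1.29% falling of all genes. Without day 3, 1 antioxidant gene rose and 0 fell, and without day 6, 1 rose and 1 fell. Hmox1, the heme oxygenase, read 6.72, 6.80, 7.91 and 8.38, against 7.08, 6.61, 6.78 and 7.09, and its slope difference did not pass (adjusted p = 0.173). Of 26 genes of p53 targets and cell cycle inhibitors Cdkn1c rose and Cdkn2c and Ei24 fell, Ei24 narrowly in limma (adjusted p = 0.0498). These are 3.85% and 7.69%, against 3.12% and 1.29% of all genes. Kit was the 1 rise among 19 surface markers, Flt1 that among 16 endothelial markers, and Csf1r, Cd68 and Cd8a were the 3 among 19 blood cell markers. These are 5.26%, 6.25% and 15.8%, against 3.12% of all genes. Of the 19 blood cell slopes 14 lay below 0. Leaving out 1 day moved several of these counts: p53 targets had 4 rises without day 3, and 0 members of the blood, endothelial and surface lists rose without day 6.

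The question of what was particular to the treated cells was put to the test of the 2 slopes in 1 model of all 8 arrays. In the untreated arrays alone 228 genes rose and 228 fell, 1.14% each. Of the 622 genes that rose with vitamin C, 547 had slopes above 0 without it, 135 passed there too, and the medians were 0.47 and 0.20. Of the 257 falling genes 237 were below 0 without vitamin C and 57 passed, with medians of -0.38 and -0.20. The genes called with vitamin C were chosen by their slope in those arrays, so a lower untreated median follows in part from the choice. Read from the other side, the 228 genes that rose without vitamin C had medians of 0.40 without and 0.47 with it, and the 228 that fell had -0.41 and -0.23. These in turn were chosen by their untreated slopes.

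The slope was steeper with vitamin C in 13 genes (0.0652% of those tested) and shallower in 0 (0.0%). In limma 1100 genes above 0 and 1144 below reached an unadjusted p under 0.05, and the alternatives called up to 12 below 0. The 13 were the transporter genes Slc23a1, Slc38a4 and Slc15a2, then Sox2 and Lefty2, Asprv1, Ctsh and Plac1, Adgrl2, Atp1b1, Ankrd22, Cfap70 and Tmsb4x. Of these Slc15a2, Atp1b1, Ankrd22, Cfap70 and Tmsb4x lie outside the rule for named genes and are named to complete the count. All 13 rose with vitamin C. Without it, Asprv1 rose (0.43), Slc38a4 fell (-0.34) and the other 11 did not pass, with slopes from -0.19 for Tmsb4x to 0.26 for Lefty2. Tmsb4x, an actin-binding peptide gene, read 7.97, 8.29, 9.04 and 9.69 with and 8.57, 8.43, 8.28 and 7.99 without vitamin C, so the groups crossed after day 4. Atp1b1, a sodium pump subunit, read 5.00, 5.81, 6.84 and 7.55, against 5.21, 5.20, 5.49 and 5.52. Adgrl2 read 5.83, 6.57, 7.84 and 8.87, against 6.76, 7.03, 6.85 and 7.19, and started lower in the treated cells. Without 1 array the count of these genes ran from 0, without untreated day 3 or day 6, to 27, without vitamin C day 3. It was 2 without vitamin C day 5 or day 6, 1 without untreated day 4 and 6 without untreated day 5.

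**Figure D4:**
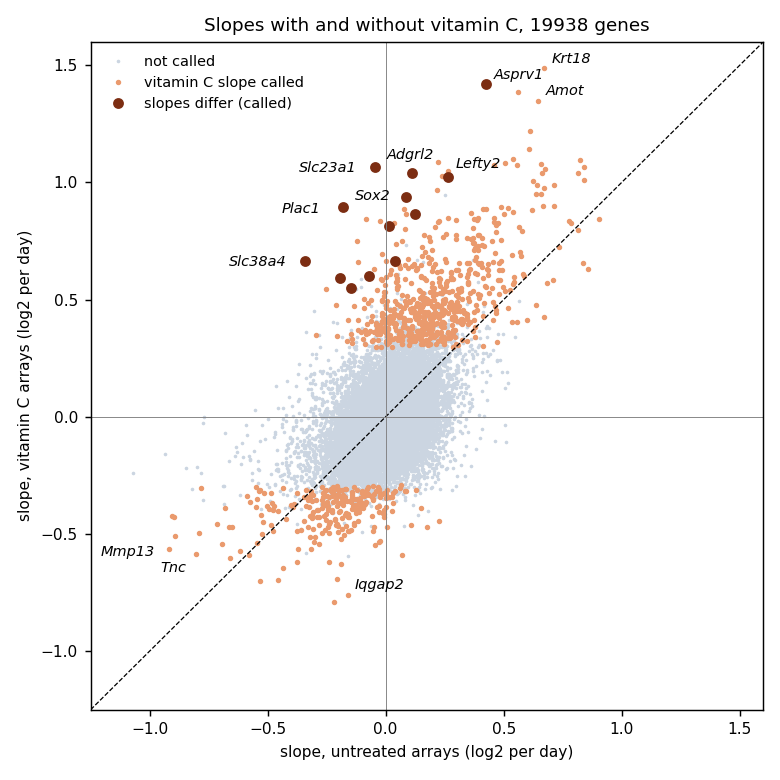
Slope in the vitamin C arrays against slope in the untreated arrays for all 19938 genes, in log2 units per day. Orange points passed the slope test with vitamin C, brown points are the 13 genes whose slopes differed, and the dashed line marks equal slopes. Of the 622 rising genes 547 lie to the right of 0, and the 13 genes lie above the line.

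By chromosome, the share of genes that rose ran from 2.14% on chromosome 2 (37 of 1732) to 5.14% on the X chromosome (38 of 739), with 4.56% on chromosome 3 (43 of 943). The share that fell ran from 0.746% on chromosome 10 to 2.32% on chromosome 9. These are descriptions without a test, and the Y chromosome, with 9 genes and 0 calls, is not counted. The rising genes were not bright at the start. Their median level was 4.90 on day 3 and 6.36 on day 6, against 4.67 and 4.72 for all genes. The falling genes went from 6.41 to 5.19. In the untreated arrays the same rising genes had medians of 5.00 and 5.64 on days 3 and 6.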

How the data were processed

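The deposited log2 values are the authors' RMA output, and the submitters' processing notes name Partek as the software. They come from Affymetrix whole-transcript arrays labelled with 100 ng of total RNA per the labels' protocols. The log base was read from the largest value, 13.8, which a natural log of scanner readings could not reach (limit 11.1). Versions, probe set definitions and the genome build: not given in the sources used here. Of 28853 probe sets 21789 had 1 gene symbol, 1621 several and 5443 were unlisted, leaving 19938 genes (999 had several probe sets).

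Groups and days came from the labels. The tests were two-sided and moderated, from limma 3.58.1 (R 4.3.3), adjusted by Benjamini-Hochberg over all genes, threshold 0.05: value on day in the 4 vitamin C arrays (2 residual and 6.5 prior degrees of freedom), late against early (2 and 7.13), and the difference of both treatments' slopes (4 and 6.43). Scripts were tested on simulated data. Tables and plots used Python 3.11.15, pandas 2.3.3 and matplotlib 3.10.9.

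The genes, 35 lists (964 of 1031 entries matched, 8 through synonyms) and rules were chosen with earlier results of these data known, and lists overlap. Named genes were the 14 steepest slopes each way with 1 direction in all steps, the 6 largest late differences each way not among them, the 6 largest slope differences, up to 6 members per list by smallest p, and a set named in any case: Cdh1, Thy1, Col1a1, Slc23a1, Nanog, Sox2, Pou5f1, Esrrb, Klf4, Myc, Dppa3, Dppa5a and Zfp42. Other list members are named to complete a count or because a reader would look for them, after their values were seen. Predicted genes, olfactory receptors and pseudogenes were counted and not named. Sequences are RefSeq's (GRCm38.p6), with 15563 genes matched to a promoter.

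Alternatives were a second quantile normalization, centring each array, a filter on the dimmest genes, other uses of probe sets, eBayes with trend and robust options, a threshold of 0.10, all 8 arrays in one model, day as a replicate block, and leaving out each array.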

Additional observations from a re-analysis of the deposited data

Results flagged for a closer look

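Among the 4 vitamin C arrays, which are different days, a value stood apart from the other 3 for 2 of the 54 genes checked, by Dixon's ratio of the gap to the range at its 95% critical value. Chance gives about 1 in 20 such sets, and a course in time can give a gap as well. For Dppa3 the ratio was 0.918, with day 4 at 4.93 above 4.18 to 4.25. For Dppa5a it was 0.833, with day 3 at 9.20 below 10.73 to 11.03.

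The slope differed between treatments for 13 genes in the limma model of all 8 arrays. The difference, with vitamin C minus without, in log2 units per day, was 1.11 for Slc23a1, 1.08 for Plac1, 1.01 for Slc38a4, 0.99 for Asprv1 and 0.93 for Adgrl2. It was 0.85 for Sox2, 0.80 for Ctsh, 0.78 for Tmsb4x and 0.76 for Lefty2. For Atp1b1 it was 0.74, for Ankrd22 0.70, for Slc15a2 0.67 and for Cfap70 0.62.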

How the results depend on the processing

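No called value changed direction in any alternative run, but the medians of 3 lists near 0 (chromatin silencing, YAP and contractile genes, mesoderm) changed sign with the scaling. Counts of genes did move, mostly with the test's options and with day 6. With eBayes trend and robust options the slope called 1007 rises and 631 falls (622 and 257 as reported), the late test 670 and 267, and the slope difference 68 above and 12 below 0. At a threshold of 0.10 these counts were 1028 and 656, 824 and 351, and 37 and 5. In the model of all 8 arrays the slope called 1046 and 676 and the late test 718 and 286. A second quantile normalization gave 270 and 70 late genes and 20 and 1 slope differences. Without the dimmest genes 19 slopes differed above and 1 below 0, and with day as a replicate block 19 and 1.

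Leaving out 1 array, the rises ran from 133 to 751 and the falls from 19 to 328, the late genes from 2 to 597 higher and from 0 to 289 lower, and the slope differences from 0 to 27 above and from 0 to 2 below 0. The lowest counts of rises, falls and late genes were without day 6. Without it 560 of the 622 rises and 223 of the 257 falls kept their sign at an unadjusted p under 0.05. The alternatives reuse arrays that chose the called genes, so signs kept there follow in part from that choice. No paired analysis was possible for the slope and late tests because they hold 1 treatment. For the median slopes of lists 15 alternative values moved and 405 did not, and 267 values for single genes fell short of the threshold that the reported value passed.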
